A study of Mus musculus with 2 samples.

Results

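The 8 long non-coding RNAs Malat1, Neat1, Kcnq1ot1, Lncpint, Gm26917, Gm42047, Meg3 and Snhg7os were grouped here as nuclear. They were followed among 32285 counted genes in single cells of the mouse retinal pigment epithelium (RPE), choroid and sclera. They were matched by gene symbol, and all 8 were found. They had been picked from these same libraries with their UMI counts known, so the levels given here describe the choice and are not independent support for it. C57BL/6J male mice of 3 months received a subretinal injection of 1 µl, either PBS (control) or doxorubicin, a DNA-damaging drug, at 100 ng/µl (Dox), and the eyes were taken 7 days later. Each condition was 1 library made from 10 eyes of 5 mice pooled before dissociation. Both groups therefore share the injection itself, and injected Dox is described as reaching only a part of the RPE area. With 1 library per condition, no difference between conditions had a replicate check, and no test was made: differences are given as log2 ratios of UMIs per 1000000 UMIs of a cell group (CPM) with exact 95% intervals, which cover counting error only.

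Most messenger RNAs leave the nucleus, whereas several of these transcripts are known for staying in it. Where in the cell Gm26917, Gm42047 and Snhg7os are found was not tested. Malat1 collects in nuclear speckles, the bodies that store splicing factors. Neat1 is the scaffold of paraspeckles, nuclear bodies that hold back RNAs and RNA-binding proteins. Kcnq1ot1 and Meg3 come from imprinted domains, where Kcnq1ot1 is transcribed from the paternal copy and silences neighbours such as the cell cycle inhibitor Cdkn1c, and Meg3 from the maternal copy. Lncpint is induced by p53 and has been tied to Polycomb-mediated silencing. In single-cell data, nuclear RNAs take a large share of the UMIs of nuclei or of cells that have lost cytoplasm, and are for that reason often read together with the mitochondrial share.

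In the GRCm38 annotation (the mm10 build of the files), Malat1 (ENSMUSG00000092341) lies at chr19:5795690-5802672 and Neat1 (ENSMUSG00000092274) at chr19:5824708-5845478, both on the minus strand. Kcnq1ot1 (ENSMUSG00000101609) lies at chr7:143203458-143296549 on the minus strand, inside Kcnq1, which runs on the plus strand. Lncpint (ENSMUSG00000044471) covers chr6:31082565-31220488 on the minus strand. Gm26917 (ENSMUSG00000097971), at chr17:39843013-39846341 on the plus strand, has a GC content of 69.1% in its longest transcript. Meg3 (ENSMUSG00000021268) lies at chr12:109541001-109571726 and Snhg7os (ENSMUSG00000086775), an antisense gene, at chr2:26640372-26645944, both on the plus strand. Gm42047 (ENSMUSG00000110631) lies at chr8:121833247-121841178 on the plus strand.

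Malat1 and Neat1 are neighbours, and their transcripts hold like stretches towards the 3′ end. The run of A marked below ends 298 bases before the annotated end of Malat1 and 6 bases before that of Neat1. The stretches below are shown because Malat1 and the long form of Neat1 are known to end without the usual poly(A) tail, while RNA is primed on A-rich stretches in this kind of library. They come from GRCm38, chr19:5795968-5796069 and chr19:5824708-5824797, and are written 5′ to 3′ on the minus strand. Capitals mark the stretches of 13, 16 and 11 bases that both transcripts hold, together with the run of 12 A in Malat1. U-rich stretches followed by an A tract of this kind are known to fold into a triple helix that protects the 3′ end.
Malat1: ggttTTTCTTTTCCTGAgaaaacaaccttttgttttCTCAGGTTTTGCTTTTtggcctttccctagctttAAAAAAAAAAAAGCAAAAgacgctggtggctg
Neat1: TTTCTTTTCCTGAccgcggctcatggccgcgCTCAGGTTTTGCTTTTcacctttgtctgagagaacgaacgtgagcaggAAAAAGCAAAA
Kcnq1ot1 held 8 runs of 12 or more A, and Meg3 held 3.

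Gm42047 is a multi-copy sequence: 68.84% of the 60-base words of its 4988-base transcript occur in other genes, chiefly Gm43549, Gm47939, Gm47761 and Gm48362. Its counts are uncertain to that extent. The 30 bases below are shown because Gm42047 had the largest Dox ratio of the 8 and doxorubicin is known to activate p53. They lie at chr8:121840933-121840962 on the plus strand. Capitals mark a match to the p53 response element, 20 bases long with no spacer. The search read the transcript strand and allowed a spacer of up to 13 bases, and the pattern is its own reverse complement.
Gm42047: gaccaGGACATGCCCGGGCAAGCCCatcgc
The match lies 221 bases from the transcript end. Such a full match was present in the last 300 bases of 72 of 131058 transcripts (0.0549%) and in 24 of 32851 RefSeq promoters of the same length (0.0731%), among them 1 of Cdkn1a. The search of Gm42047 covered all 4988 bases of its transcript. The shares for 300 bases therefore do not give how often a transcript of that length holds a match. No promoter of Malat1, Kcnq1ot1, Lncpint, Meg3 or Snhg7os held it, which says only that these letters are not in those windows. Over whole transcripts, the 93092 bases of Kcnq1ot1 held 2 such matches, Gm42047 1 and the longest transcripts of the other 6 RNAs 0. Promoters of Neat1, Gm26917 and Gm42047 were not analysed here.

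The control library held 20381 barcodes and 117731270 UMIs, the Dox library 15649 barcodes and 103997248 UMIs. Limits on UMIs, genes and mitochondrial share kept 20180 and 15426 cells, and 441 barcodes occurred in both libraries. RPE cells were those with at least 10 UMIs of Rpe65, the visual cycle isomerase, which gave 1526 control and 1630 Dox cells. They were split at a mitochondrial share of 5% and at 1000 CPM of Serpina3n, an acute-phase protease inhibitor. This gave main RPE cells (1203 control, 1117 Dox), Serpina3n-high RPE cells (14 and 186) and high-mitochondrial RPE cells (309 and 327). Of 12 RPE markers 11 were at 10 CPM or more and none was at 0 in each of these groups. Of 10 rod photoreceptor markers 1 was at 10 CPM or more, and the list summed to 360.5 and 369.9 CPM in main RPE cells and to between 174 and 211 CPM in the others. The 13 melanocyte markers, none at 0, summed to between 2051 and 6237 CPM. The part of such RNA in the values below was not tested. Scrublet called 8.67% of control and 4.68% of Dox barcodes doublets.

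Malat1 alone took 11113 CPM of the UMIs of main RPE cells in control (95% Poisson interval 11069.9 to 11156) and 11304 CPM in Dox (11260.1 to 11347). In high-mitochondrial RPE cells it took 37954 CPM and 43097 CPM. In Serpina3n-high RPE cells the control level was 5900.1 CPM and the Dox level 11309.6 CPM. Both libraries thus had their highest Malat1 level among RPE cells in the high-mitochondrial group. Cells differed widely within a group: in main RPE cells of control, Malat1 made up 0.233% of UMIs at the 10th percentile of cells, 0.797% at the median and 3.12% at the 90th. In high-mitochondrial cells of control the same percentiles were 1.04%, 2.9% and 11.6%.

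Neat1, Kcnq1ot1, Lncpint and Gm26917 were likewise highest among RPE cells in the high-mitochondrial group of both libraries. Neat1 stood at 33.3 CPM (31.0 to 35.7) in main RPE cells of control and 29.6 CPM (27.4 to 31.9) of Dox, against 95.9 and 100.1 CPM in high-mitochondrial cells. Kcnq1ot1 stood at 34.4 and 39.5 CPM in main cells and at 124 and 141 CPM in high-mitochondrial cells. Lncpint stood at 8.1 and 9.48 CPM against 32.8 and 32.3 CPM. Gm26917, whose neighbour on chromosome 17 is the abundant Gm42418, stood at 188 and 251 CPM against 773 and 906 CPM. This neighbour stood at 10346 and 11400 CPM in main cells and at 30057 and 27800.2 CPM in high-mitochondrial cells. Whether the UMIs of Gm26917 and Gm42418 come from separate RNAs was not tested. For Neat1, Kcnq1ot1, Lncpint and Gm26917 the intervals of the main and high-mitochondrial groups did not overlap in either library. Between these groups 48.0% of all genes tested in control and 46.9% in Dox were past 1.5-fold. The share of all genes with intervals that did not overlap is not given here. Meg3 did not follow Malat1: it stood at 8.87 and 7.56 CPM in main cells and at 10.6 and 4.66 CPM in high-mitochondrial cells. Snhg7os, read from the strand opposite a snoRNA host gene, was close to the detection limit in RPE cells, with 35 UMIs in control and 23 in Dox over all main cells.

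**Figure D1:**
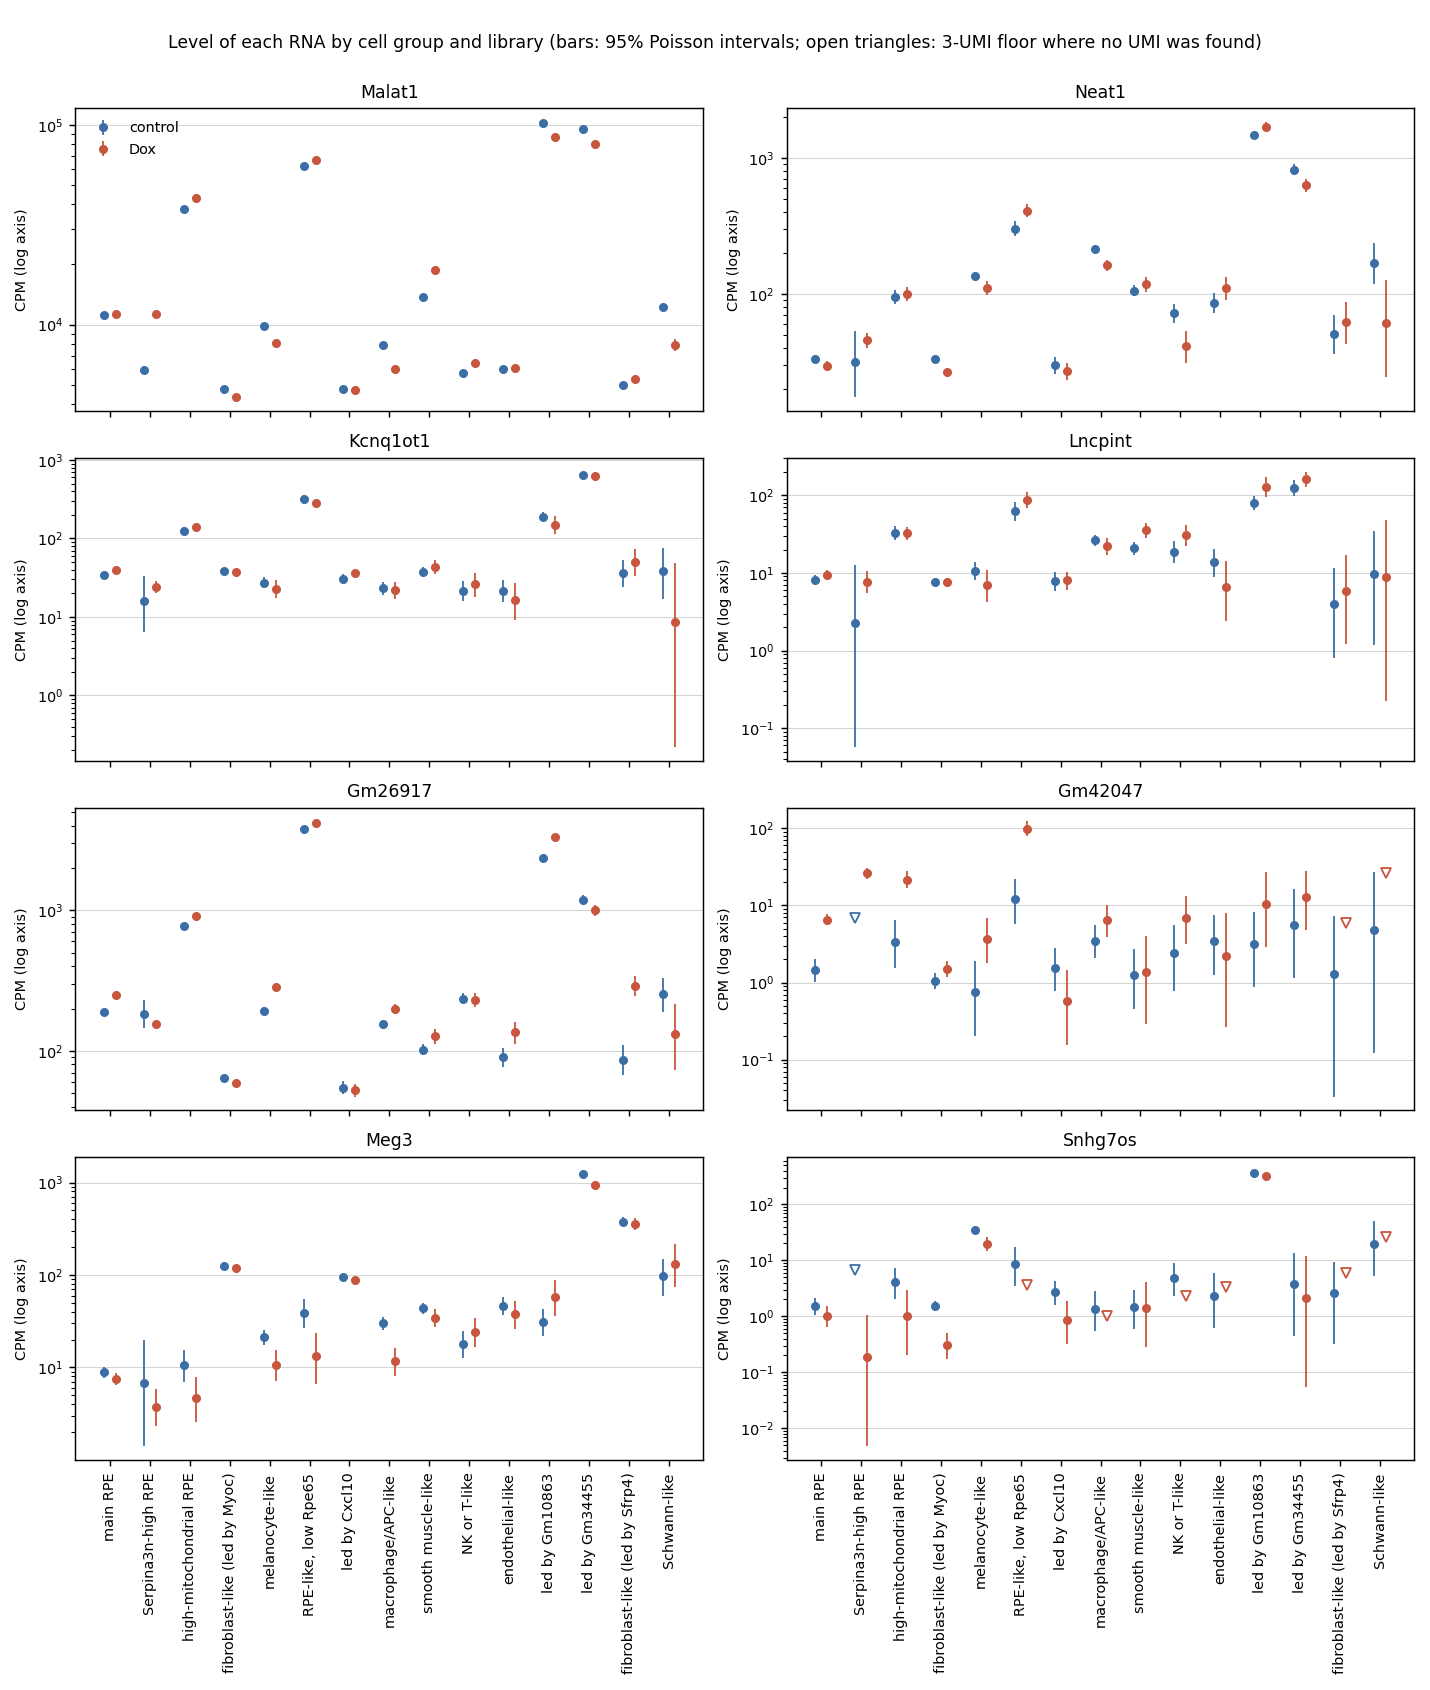
Level of each of the 8 RNAs in CPM (log axis) by cell group, with control in blue and Dox in red; points are summed UMIs over all cells of a group, bars are 95% Poisson intervals, and open triangles give the floor of 3 UMIs where none was found. Malat1, Neat1, Kcnq1ot1, Lncpint and Gm26917 peak in the clusters led by Gm10863 and Gm34455 and in RPE-like cells of low Rpe65. Gm42047 is highest in Dox RPE-like cells of low Rpe65, followed by Dox Serpina3n-high and high-mitochondrial RPE cells. In Dox main RPE cells it stands at 6.51 CPM, near the 6.53 CPM of Dox macrophage or antigen-presenting-like cells.

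The first question was how far these levels moved with the depth of a cell. Malat1 fell from 103333 CPM in main RPE cells of control with under 5000 UMIs (116 cells, 10.3% of their UMIs) to 4937 CPM in those with 40000 or more (29 cells). Counted per cell it changed far less, from 301 UMIs in the shallowest cells to 181, 195, 218 and 217 in the next depth classes. In Dox the per-cell values were 339, 276, 228, 194 and 244 UMIs. Malat1 UMIs per main RPE cell thus stayed within 181 to 339 while the median depth rose from 2805.5 to 43250 UMIs in control. A cell of low depth needs a high Rpe65 share to pass the gate, so the shallowest class is a selected one.

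Kcnq1ot1 and Neat1 also fell less per cell than in CPM. Kcnq1ot1 fell from 474 to 15.7 CPM across the same control classes, and from 1.38 to 0.69 UMIs per cell. Neat1 fell from 273 to 14.1 CPM and only from 0.793 to 0.621 UMIs per cell. In Dox Neat1 fell further per cell, from 1.24 UMIs in the shallowest to 0.494 in the deepest class. Kcnq1ot1 in Dox went from 1.42 to 1.24, with 0.644 at 20000 to 40000 UMIs. Gm26917 fell most strongly of these. It fell from 4400.4 to 36.0 CPM and also per cell, from 12.8 UMIs in the shallowest control cells to 1.59 in the deepest, and in Dox from 20.6 to 1.81. The shallowest main RPE cells therefore held more Gm26917 UMIs each than the deepest ones, on several times fewer UMIs in all. Meg3 in control did not fall from the shallowest class on. It stood there at 8.89 CPM on 3 UMIs, at 27.2 CPM from 5000 to 10000 UMIs and at 0.783 CPM in the deepest class. In Dox Meg3 fell from each class to the next, from 53.9 CPM on 19 UMIs in the shallowest to 0.289 CPM on 1 UMI in the deepest.

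**Figure D2:**
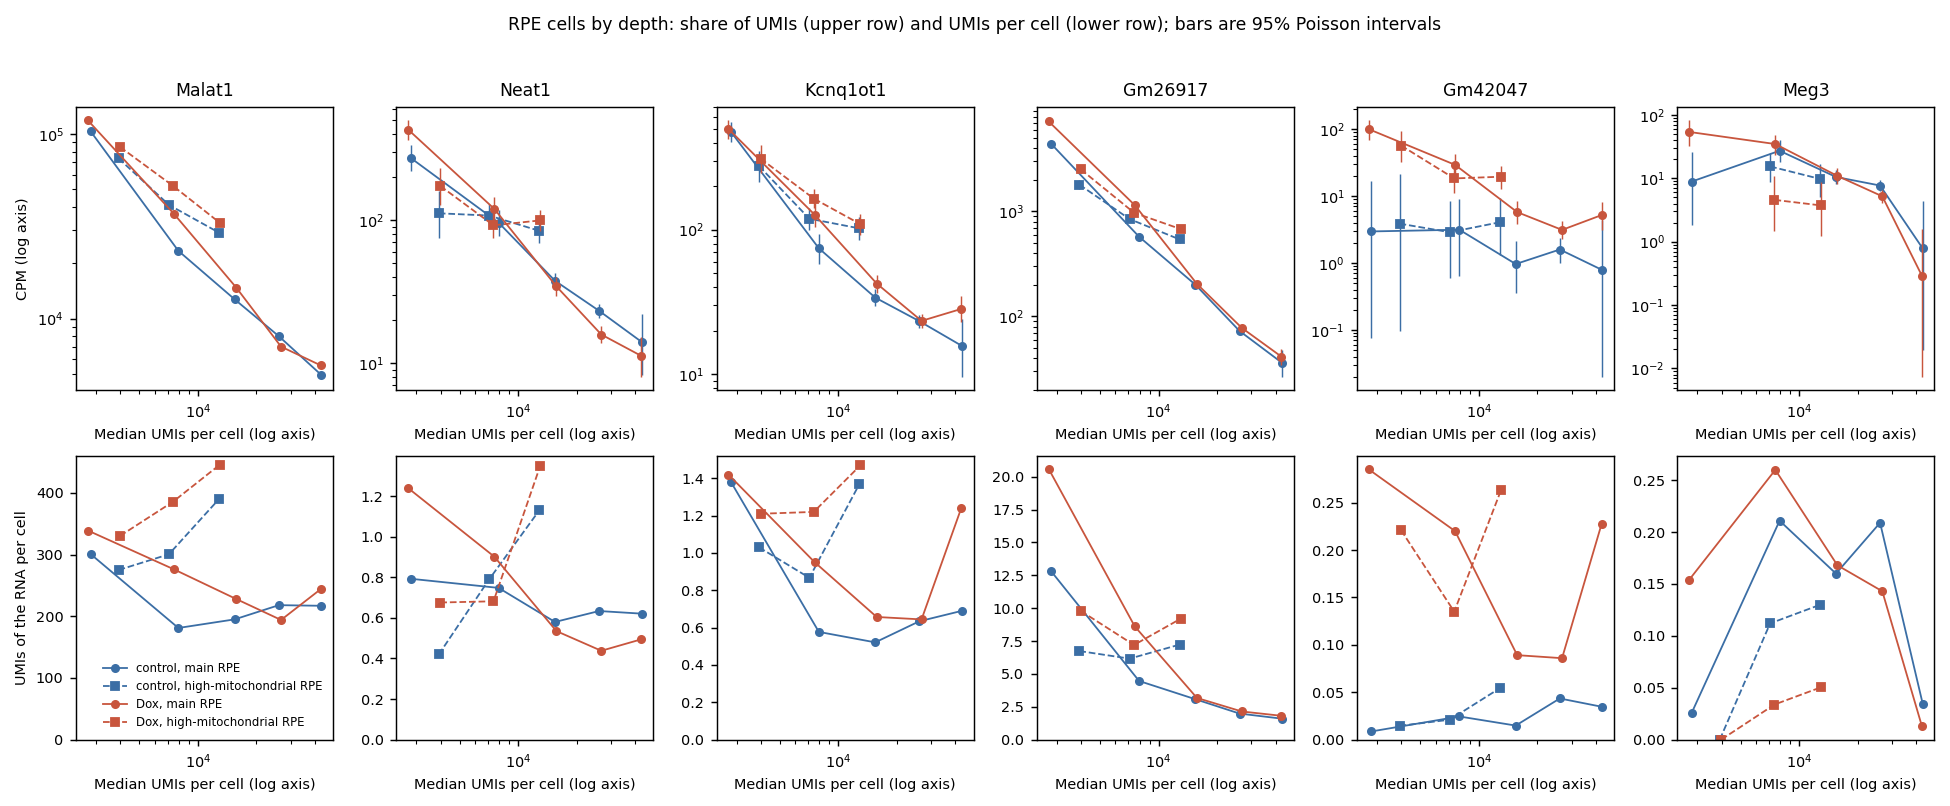
RPE cells by depth class, with the median UMIs per cell on the x axis (log), CPM in the upper row (log axis, bars are 95% Poisson intervals) and UMIs of the RNA per cell in the lower row, for classes of 20 or more cells; solid lines are main and dashed lines high-mitochondrial RPE cells. Malat1 loses CPM along the whole range while its UMIs per cell stay between 181 and 446. Gm42047 is higher in Dox at each depth, with overlapping intervals in main cells of 20000 or more UMIs.

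Main RPE cells were then ranked by Malat1 share and cut into 4 groups of nearly equal size, with Malat1 left out of the total for the other members. The lowest control group reached up to 0.415% Malat1 and the highest ran from 1.51% to 39.2%. Gm26917 rose from 35.9 CPM (225 UMIs) in the lowest to 821 CPM (3144 UMIs) in the highest group of control, a log2 ratio of 4.52 (4.32 to 4.72). In Dox it rose from 35.5 to 1381 CPM, a log2 ratio of 5.28 (5.08 to 5.49). Its neighbour Gm42418 went from 8919.8 to 14779 CPM in control and from 8655 to 22298 CPM in Dox. Kcnq1ot1 went from 13.2 CPM to 109 CPM in control, a log2 ratio of 3.05 (2.7 to 3.4). Neat1 went from 16.1 to 95.6 CPM and Lncpint from 2.39 to 27.9 CPM. Gm26917, Kcnq1ot1, Neat1 and Lncpint were each higher in each group than in the one before it in both libraries. The intervals of some neighbouring groups overlapped.

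Past 1.5-fold were 5 of the 5 other members with 50 or more UMIs in control and 6 of 6 in Dox, all higher, where 40.1% and 45.0% of all genes tested were past it in either direction. Meg3 had the smallest ratio of them, 0.97 (0.41 to 1.55) in control and 1.29 (0.69 to 1.91) in Dox on the log2 scale, and among control cells of 5000 to 10000 UMIs it stood at -2.45 (-4.85 to -0.67). Gm42047 rose with Malat1 in Dox, from 2.18 CPM on 13 UMIs to 24.6 CPM on 83 UMIs, a log2 ratio of 3.49 (2.64 to 4.46). The median of all genes was itself 0.39 higher in control and 0.47 higher in Dox, on the log2 scale. The highest group differed in other ways: its cells had medians of 12493.5 (control) and 11006 UMIs (Dox), against 22096 and 21450.5 in the lowest, and its mitochondrial share was 2.97% and 2.9% against 1.76% and 1.8%. The part of the mitochondrial share was not tested. Rpe65 stood at 5069 CPM in the highest and 4972 CPM in the lowest control group. Among main cells of 5000 to 10000 UMIs, Gm26917 stood at 6.1 (5.04 to 7.42) in control and 8.59 (7.04 to 10.87) in Dox.

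**Figure D3:**
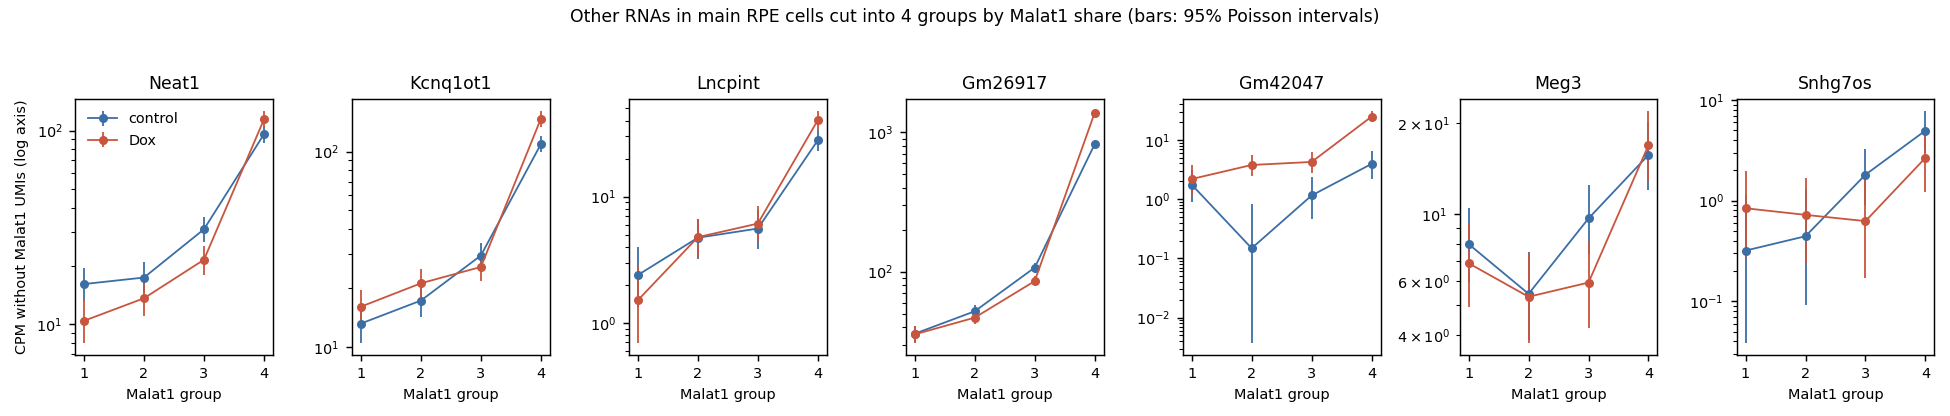
CPM of the other 7 RNAs (log axis, Malat1 left out of the total) in main RPE cells cut into 4 groups by Malat1 share, group 1 being the lowest, for control (blue) and Dox (red), with 95% Poisson intervals. Neat1, Kcnq1ot1, Lncpint and Gm26917 climb through all 4 groups in both libraries, and Gm42047 reaches 24.6 CPM in the highest Dox group against 3.92 CPM in control.

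The other genes of these nuclear bodies were taken from lists of their proteins. Of 25 genes for nuclear speckle proteins, all with 50 or more UMIs, 18 were past 1.5-fold in the highest against the lowest Malat1 group of control and 21 in Dox, all higher. Of all genes tested, 40.1% and 45.0% were past it, and nearly all of these were higher too (3763 against 117 lower in control). Pnisr, a speckle protein with serine- and arginine-rich stretches, stood at 157 against 41.8 CPM in control. Of 13 paraspeckle proteins tested, 8 were higher in control and 9 in Dox, among them Sfpq, a core paraspeckle protein, at 147 against 46.7 CPM in Dox. The list medians of the log2 ratio were 0.8 and 1.09 for speckle and 0.63 and 0.78 for paraspeckle genes, against 0.39 and 0.47 for all genes. Host genes of snoRNAs, whose spliced RNA is mostly cytoplasmic, had medians of 0.21 and 0.5, and 1 of 12 and 3 of 12 were past 1.5-fold. Among other nuclear RNAs, Firre, which organises chromatin from the X chromosome, stood at 31.6 against 5.9 CPM in control and 44.4 against 5.38 CPM in Dox.

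The mitochondrial share is one of the values by which the cells were split, so the contrast between high-mitochondrial and main RPE cells is a description. In control 5 of 6 members with 50 or more UMIs were past 1.5-fold, all higher, where 48.0% of all genes were. In Dox all 7 tested were past it, 6 higher and Meg3 lower at -0.7 (-1.6 to 0.09), where 46.9% of all genes were. The log2 ratios in control were 1.77 for Malat1, 1.53 for Neat1, 1.85 for Kcnq1ot1, 2.02 for Lncpint and 2.04 for Gm26917, against a median over all genes of 0.4. Per cell the differences were smaller, with 325 Malat1 UMIs in a high-mitochondrial cell of control against 215 in a main cell. High-mitochondrial cells were also shallower, with a median of 7650 UMIs in control against 19035.

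Between cells of like depth the ratios of Malat1, Neat1, Kcnq1ot1, Lncpint and Gm26917 were smaller. Among RPE cells of 5000 to 10000 UMIs, 2 members were past 1.5-fold in control, Malat1 at 0.83 and Kcnq1ot1 at 0.68, and 0 of 5 with 50 or more UMIs in Dox. There Malat1 stood at 0.5, Kcnq1ot1 at 0.38 and Lncpint at 0.31, and Neat1 at -0.38 and Gm26917 at -0.24. Gm42047 at -0.68 (-1.59 to 0.21) and Meg3 at -2.92 (-4.64 to -1.55) had fewer than 50 UMIs and were not counted. The share of all genes past 1.5-fold at this depth is not given here. The mitochondrial share did not order the levels along its whole range. Cells with a share under 1% held 15979 CPM of Malat1 in control, more than the 8477 CPM at 1 to 2% and the 10256 CPM at 2 to 3%. On either side of the split, Malat1 stood at 16061 CPM for shares of 3 to 5% and at 33285 CPM for 5 to 10%, and at 60509.8 CPM above 10%. In Dox the cells under 1% held 33789.6 CPM of Malat1 and 1549 CPM of Gm26917 at a median depth of 5613 UMIs. In Dox the lowest and the highest mitochondrial shares were thus both marked by high Malat1 and low depth. In control the cells under 1% were also shallow, with a median of 6418 UMIs, but their Malat1 was near that of the cells at 3 to 5%.

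The study's main comparison was of Dox-RPE with control RPE cells. Gm42047 was the member with the largest ratio. Over all main RPE cells it went from 34 UMIs (1.46 CPM, 1.01 to 2.05) in control to 149 UMIs (6.51 CPM, 5.5 to 7.64) in Dox, 4.44-fold with a log2 ratio of 2.15 (1.61 to 2.73). In high-mitochondrial cells it went from 9 UMIs to 65, from 3.4 to 21.6 CPM, a log2 ratio of 2.67 (1.66 to 3.86). In Serpina3n-high cells no UMI was found in the 14 control cells, where 3 counts would be 6.82 CPM, and 139 UMIs (26.2 CPM) in the 186 Dox cells, which is at least 3.85-fold higher when control is set to that floor. The lower 95% limit of the log2 ratio itself was 1.63. The intervals of control and Dox did not overlap in any of the 3 RPE groups. Ranked by log2 ratio it was number 2 of 12349 genes in main RPE cells and number 2 of 8891 in high-mitochondrial cells.

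The ratios of the other members were smaller in main and high-mitochondrial cells. Malat1 had a log2 ratio of 0.02 in main and 0.18 in high-mitochondrial cells, and Kcnq1ot1 0.2 and 0.19. In Serpina3n-high cells, against the 14 control cells, Malat1 stood at 0.94 (0.88 to 1.0) and Kcnq1ot1 at 0.6 (-0.48 to 1.95). Gm26917 was higher by 0.41 (0.36 to 0.47) in main and 0.23 (0.15 to 0.31) in high-mitochondrial cells. It stood at -0.25 (-0.58 to 0.09) in Serpina3n-high cells. Neat1, a known p53 target in other cells, stood at -0.17 (-0.32 to -0.02) in main and 0.06 (-0.18 to 0.31) in high-mitochondrial cells. In Serpina3n-high cells it stood at 0.52 (-0.25 to 1.41), on 242 UMIs in Dox and 14 in control. Lncpint, likewise a known p53 target, stood at 0.23 (-0.06 to 0.52) in main and -0.03 (-0.46 to 0.41) in high-mitochondrial cells. Meg3 stood at -0.23 (-0.53 to 0.07) in main cells and at 14 UMIs against 28 in high-mitochondrial cells. Over all RPE cells 2 of 8 members were past 1.5-fold, Gm42047 at 2.79 and Snhg7os at -1.01 (-1.76 to -0.3) on 27 and 46 UMIs, where 6.58% of 12774 genes were past it. In main RPE cells the same 2 were past it, where 4.40% of genes were, though Snhg7os at -0.59 (-1.41 to 0.21) had an interval that spans 0, and in high-mitochondrial cells Gm42047 was, 1 of 6 tested, where 7.91% were. In Serpina3n-high cells Malat1, Kcnq1ot1 and Gm42047 were, 3 of 5 tested, where 27.5% of genes were, on the 14 control cells.

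**Figure D4:**
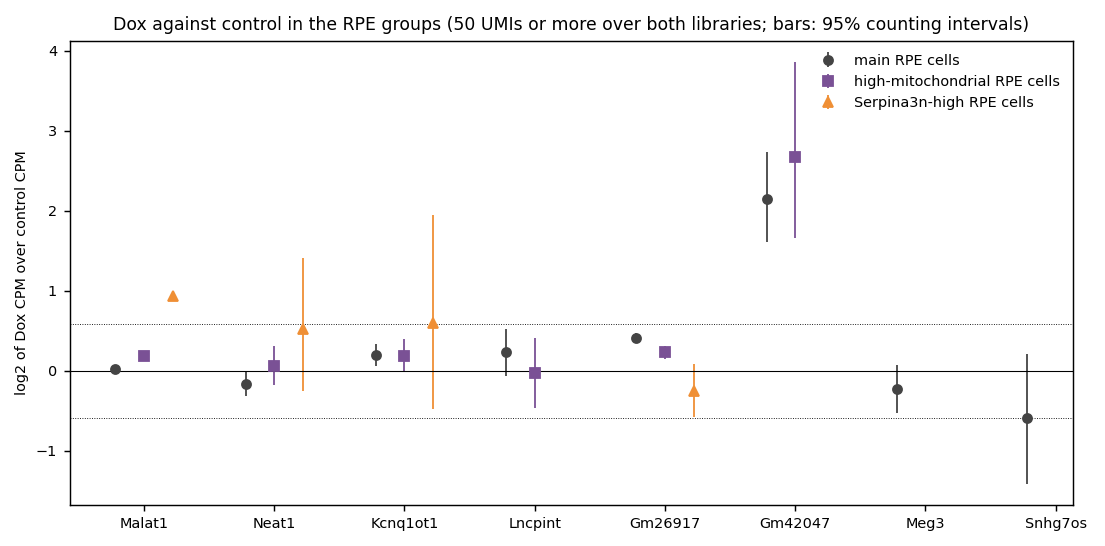
log2 ratio of Dox over control CPM for each RNA with 50 or more UMIs, in main (circles), high-mitochondrial (squares) and Serpina3n-high RPE cells (triangles), with 95% counting intervals; dotted lines mark 1.5-fold either way. Gm42047 lies at 2.15 and 2.67, and its value in Serpina3n-high cells is not drawn because control held no UMI; Malat1 is near 0 in main cells.

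The Dox values depended on depth for several members. In main RPE cells of 5000 to 10000 UMIs (123 per library), the log2 ratio was 0.66 (0.64 to 0.69) for Malat1, 0.77 (0.33 to 1.22) for Kcnq1ot1 and 1.0 (0.85 to 1.15) for Gm26917, and 3.22 (1.52 to 5.58) for Gm42047. There Lncpint stood at 0.59 (-0.24 to 1.44), and Neat1 and Meg3, which were below 0 over all main cells, at 0.32 (-0.09 to 0.74) and 0.35 (-0.44 to 1.15). From 10000 to 20000 UMIs (303 Dox and 405 control cells) Gm26917 stood at 204 CPM in Dox and 200.2 CPM in control. Kcnq1ot1 stood there at 42.4 and 33.9 CPM. From 20000 to 40000 UMIs (489 and 530 cells) Gm26917 stood at 77.7 and 72.6 CPM and Kcnq1ot1 at 23.4 and 23.3 CPM. In that class Malat1 stood at 7041 CPM in Dox and 8020.2 CPM in control, and Gm42047 at 3.12 and 1.59 CPM. Gm42047 was higher in Dox in each of the 5 depth classes, although the intervals of the libraries overlapped in the classes from 20000 UMIs up. It had 42 UMIs in Dox and 23 in control from 20000 to 40000 UMIs, where no interval of the ratio is given. It was highest in the shallowest Dox cells, at 99.3 CPM and 0.285 UMIs per cell. Control held 2.96 CPM (0.075 to 16.5) and 0.00862 UMIs per cell there, on 1 UMI.

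The genes that share most sequence with Gm42047 had few UMIs. Gm43549, Gm47939 and Gm46349 had no UMI in any RPE cell of either library, Gm48362 had 1 in Dox, and Gm47761 had 8 in Dox and 0 in control. Sos2, which holds 1.03% of the 60-base words, had 333 UMIs in Dox and 290 in control. Its log2 ratio over all RPE cells was -0.05 (-0.28 to 0.19). Of the genes within 100 kb, Klhdc4 had a log2 ratio of 0.1 (-0.13 to 0.34) in main RPE cells, and Slc7a5, an amino acid transporter, one of 0.06 (-0.06 to 0.17). In high-mitochondrial cells Slc7a5 stood at 0.52 (0.29 to 0.75). How reads with several matches were counted was not given in the sources used here.

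Known p53 targets were set beside Gm42047. Of 14 tested, 2 were past 1.5-fold in main RPE cells, Phlda3 and Cdkn1a, with a list median of 0.23 against 0.01 for all genes, of which 4.40% were past it. In high-mitochondrial cells 7 of 13 were, with a median of 0.59, where 7.91% of all genes were. In Serpina3n-high cells 12 of 14 were, with a median of 1.26, where 27.5% of all genes were, on the 14 control cells. Main RPE cells of Dox with a Gm42047 UMI (76 cells) held 217 CPM of Cdkn1a, the p21 cell cycle inhibitor (195 to 241), against 54.7 CPM (51.6 to 58.0) in the 1041 cells without. The p53 list as a whole summed to 1416 and 779 CPM. In Serpina3n-high cells Cdkn1a stood at 399.7 CPM in 67 cells with and 258 CPM in 119 cells without a Gm42047 UMI, and in high-mitochondrial cells at 325 CPM in 29 and 96.4 CPM in 298. In control 30 main cells had a Gm42047 UMI, with 104 CPM of Cdkn1a against 41.8 CPM. High-mitochondrial cells of control showed no clear difference, with overlapping intervals. The p53 list summed to 824 CPM (639.8 to 1044) in the 8 cells with and 903 CPM (867 to 940.4) in the 301 without a Gm42047 UMI. Cdkn1a stood at 96.9 CPM (41.8 to 191) and 81.0 CPM (70.4 to 92.8). Cells with a Gm42047 UMI were deeper, with medians of 22968 against 20172 UMIs in main cells of Dox and 28879 against 18926 in control, and in main cells of Dox they held 24181 CPM of Malat1 against 10302. The part of depth and of Malat1 share in these differences was not tested.

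Serpina3n chose one of the groups, so the contrast of Serpina3n-high with main RPE cells is again a description. In Dox, Malat1 had a log2 ratio of 0.0 (-0.01 to 0.01), while Kcnq1ot1 was lower by a log2 ratio of -0.71 (-0.99 to -0.44) and Gm26917 by one of -0.7 (-0.81 to -0.59). Neat1 was higher, at 45.7 against 29.6 CPM, a log2 ratio of 0.63 (0.41 to 0.84), and Gm42047 at 26.2 against 6.51 CPM, one of 2.01 (1.67 to 2.35). Meg3 was lower, at 3.78 against 7.56 CPM. Of 7 members tested 5 were past 1.5-fold, 2 higher and 3 lower, where 23.1% of genes were. In control 3 of 6 were, all lower, where 38.2% were, on 14 cells. With the split at 500 CPM of Serpina3n, Gm26917 stood at 0.04 in Dox. Serpina3n-high cells of Dox were deep, with a median of 29370 UMIs against 20214. In these cells 11 of 14 p53 targets were past 1.5-fold, with Gdf15, a stress cytokine, at 132 against 21.5 CPM.

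Gm42047 was also followed along the Serpina3n level. Among Dox RPE cells of low mitochondrial share it stood at 3.66 CPM below 100 CPM of Serpina3n (909 cells) and already at 21.6 CPM (14.9 to 30.3) between 100 and 250 CPM (112 cells). In the higher classes it stood at 26.4, 32.4, 20.6 and 27.1 CPM, with intervals that overlap. Counted per cell it went from 0.0803 UMIs below 100 CPM of Serpina3n to 0.295, 0.326, 0.56, 0.438 and 0.812 in the classes above, so the deepest class held the most. On the CPM scale Malat1 took another course, with 9632 CPM below 100, a peak of 31807 CPM between 250 and 500 and 10681 CPM above 2000 CPM. Per cell it stayed higher than the 211 UMIs of the lowest class, with 393 between 250 and 500 and 320.2 above 2000 CPM. Kcnq1ot1 peaked in CPM in the class from 250 to 500, at 109 CPM, and so did Neat1 at 111 CPM. That class was the shallowest, with a median of 7110 UMIs, and the last was deep at 30281.5 UMIs. In control the classes from 100 CPM up held 7 to 50 cells each.

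**Figure D5:**
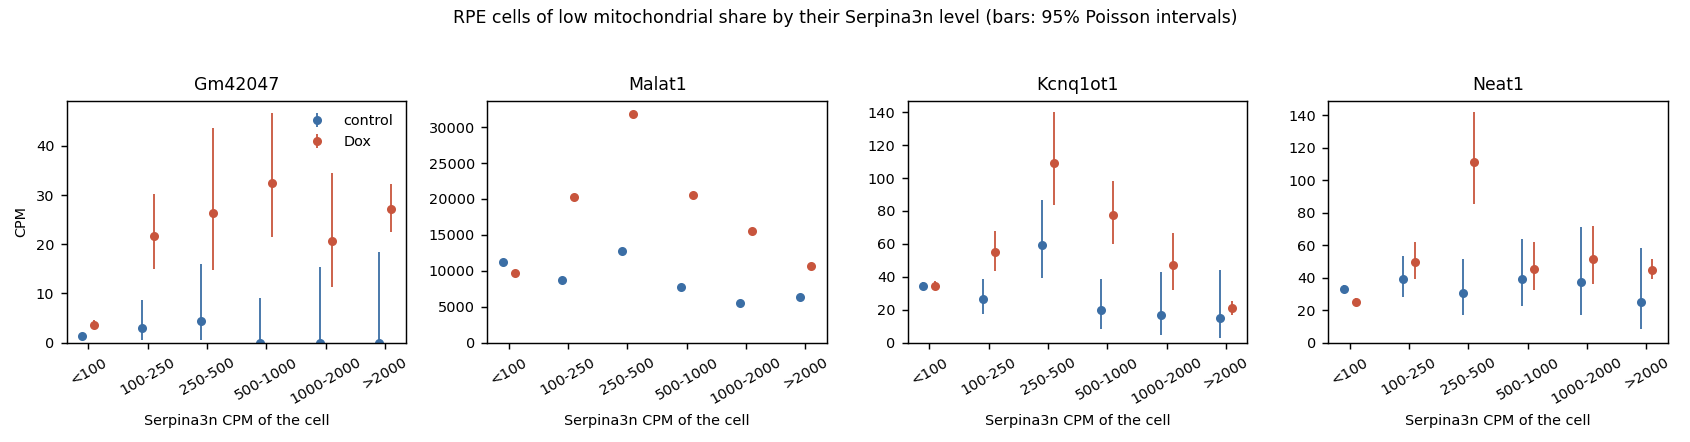
CPM (linear axis from 0) of Gm42047, Malat1, Kcnq1ot1 and Neat1 in RPE cells of low mitochondrial share by the Serpina3n CPM of the cell, for control (blue) and Dox (red), with 95% Poisson intervals. In Dox Gm42047 steps up from 3.66 to 21.6 CPM at the first class boundary and has overlapping intervals from there on, although its UMIs per cell go from 0.295 to 0.812, while the other 3 RNAs peak between 250 and 500 CPM.

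The RPE was then set against the rest of the tissue. In control 5 of 8 members were past 1.5-fold between RPE cells and all other cells, Malat1 and Gm26917 higher and Neat1, Meg3 and Snhg7os lower, where 63.6% of genes were past it. In Dox 5 of 8 were, with Gm42047 among the higher ones at 1.85 (1.6 to 2.11) and Neat1 at -0.58, just under the limit, where 63.5% were. Malat1 had 237 UMIs in an RPE cell of control against 39.6 in another cell. Meg3 was the most strongly depleted member, at 9.01 CPM in RPE and 109 CPM in other cells of control, a log2 ratio of -3.6 (-3.79 to -3.41), and -4.0 (-4.21 to -3.8) in Dox. Over cells of all depths Kcnq1ot1 did not reach 1.5-fold, at -0.04 and 0.11, nor did Lncpint, at -0.22 and -0.12. These ratios were others among cells of 5000 to 10000 UMIs, where 7 of 8 members were past 1.5-fold in each library, 6 higher in RPE cells and Meg3 lower. The share of all genes past it at this depth is not given here. Only 266 control and 273 Dox RPE cells lay in this range, and 143 and 148 of them were high-mitochondrial, so they are a selected part of the RPE cells. In control Gm42047, at 0.99 (-0.51 to 2.19), had an interval that spans 0 at this depth. There Neat1 stood at 0.9 (0.69 to 1.11) in control and 1.39 (1.18 to 1.6) in the Dox library, and Lncpint at 1.63 (1.2 to 2.03) and 2.07 (1.7 to 2.43). Kcnq1ot1 stood at 1.29 (1.07 to 1.5) and 1.97 (1.78 to 2.15). Malat1 stood at 2.51 (2.5 to 2.53) and Meg3 at -2.47 (-2.94 to -2.03) in control. Snhg7os, at 0.01 (-1.14 to 0.97) in control, was the exception.

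The other cells fell into clusters built without the 8 RNAs. The cluster of RPE-like cells also held 228 control and 202 Dox cells under the Rpe65 limit. In these Malat1 stood at 62098 and 66914 CPM, and Gm26917 at 3766 and 4145 CPM, with medians of 1884.5 and 2241.5 UMIs per cell. Of all groups Gm42047 was highest in them, at 98.9 CPM (78.7 to 123) on 82 UMIs in Dox against 12.1 CPM (5.81 to 22.3) on 10 in control. Per cell they held 225 and 275 Malat1 UMIs, close to the 215 and 232 of main RPE cells, on far fewer UMIs in all.

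A pair of clusters without a name stood out as well. The first was led, besides Snhg7os itself, by Gm10863, Adgb, Chsy3 and Pax3, and held 481 control and 151 Dox cells outside the RPE gate. The other was led by Gm34455, Pnp2 and Gm50012 and held 236 and 180. Malat1 took 102619 and 87104 CPM in the first and 95381 and 79905 CPM in the other. Neat1 was highest in the first, at 1488 CPM (1421 to 1557) for control and 1709 CPM for Dox. Kcnq1ot1 was highest in the other, at 637 and 622 CPM, as was Lncpint, at 125 and 159.9 CPM, although its intervals overlapped those of the first in Dox. All 13 melanocyte markers were at 10 CPM or more in the first, and summed to 22327 CPM in control and 15811 in Dox, although none was among its 10 leading genes. RPE markers summed to 18212 and 26679 CPM in it, and to 15397 and 22410.2 CPM in the other, where fibroblast markers summed to 10395 and 10323 CPM. Both clusters were shallow, with medians from 1817 to 2175 UMIs.

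Among named types outside the RPE, the fibroblast-like cells led by Myoc held little of most members, with 4776 and 4352 CPM of Malat1 and 25.3 UMIs per cell in both libraries. Neat1 was several times higher in macrophage or antigen-presenting-like cells (215 CPM, Dox 163 CPM) and in melanocyte-like cells (135 CPM, Dox 111 CPM) than in these fibroblast-like cells, at 33.4 and 26.6 CPM. Melanocyte-like cells were led by the haemoglobin gene Hbb-bs beside Pmel and Mlana, and in Dox RPE markers summed to 63173 CPM in them against 29441 CPM of melanocyte markers. At the finer clustering resolution of 0.2, the melanocyte-like cluster held 998 control and 623 Dox cells instead of 2058 and 2039. A separate cluster of 1188 and 1440 cells was then led by haemoglobin genes, so these melanocyte-like values cover a mixed set of barcodes. Smooth muscle-like cells held 13802 and 18775 CPM of Malat1, but the median cell only 0.445% in each library and the 90th percentile 11.5% and 17.4%, so a minority of these cells set the level.

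Among named types Meg3 was highest in fibroblast-like cells led by Sfrp4, and it was also high in those led by Myoc and in Schwann-like cells. It stood at 378 and 359 CPM in the cells led by Sfrp4, a secreted Wnt antagonist, and at 125 and 118 CPM in those led by Myoc. The 62 control and 32 Dox Schwann-like cells had 97.0 CPM (59.3 to 149.8) and 131 CPM (73.4 to 216). Of all groups it was highest in the unnamed cluster led by Gm34455, with 1232 CPM and 938 CPM. Levels in the immune classes lay between 11.7 and 30.1 CPM. Rian, which is transcribed from the same imprinted domain, followed it, at 1.18 CPM in RPE and 12.9 CPM in other cells of control. Of 11 imprinted neighbours of Meg3 or Kcnq1ot1 tested there, 7 were lower in RPE cells and 1 higher, where 63.6% of all genes were past 1.5-fold, and their median was -2.76 against -0.42 for all genes. Cdkn1c, which Kcnq1ot1 silences in cis, stood at 52.1 CPM in RPE and 465 CPM in other cells.

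Snhg7os was concentrated in the cluster it leads, at 358 CPM (326 to 393) in control and 318 CPM (264 to 379.6) in Dox, followed by melanocyte-like cells at 34.5 and 19.6 CPM. All other groups with 50 or more cells in both libraries held 8.48 CPM or less. In Dox it fell to 230 UMIs in the whole library from 843 in control, and the cluster it leads fell to 0.979% of kept cells from 2.38%. In fibroblast-like cells led by Myoc it stood at 1.55 CPM (1.25 to 1.9) in control and at 0.307 CPM (0.172 to 0.507) in Dox. The part of that share in the levels of other cells was not tested.

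Some members also differed between the libraries outside the RPE. Gm26917 was higher in fibroblast-like cells led by Sfrp4, at 289 against 86.7 CPM on 72 and 111 cells. In NK or T-like cells Neat1 stood lower, with 41.3 CPM (31.1 to 53.9) against 72.3 CPM (61.2 to 84.9). Lncpint was higher in smooth muscle-like cells, at 35.6 against 20.8 CPM, and Meg3 lower in macrophage or antigen-presenting-like cells, at 11.7 (8.09 to 16.3) against 30.1 CPM (25.5 to 35.2). Gm42047 stood at 1.52 against 1.06 CPM in fibroblast-like cells led by Myoc. The intervals of these 2 levels overlapped, and the log2 ratio was 0.52 (0.01 to 1.03). In macrophage or antigen-presenting-like cells it stood at 6.53 against 3.49 CPM on 19 and 18 UMIs, a log2 ratio of 0.9 (-0.11 to 1.92). In melanocyte-like cells it stood at 3.69 against 0.746 CPM on 10 and 4 UMIs, a log2 ratio of 2.31 (0.51 to 4.43). Over all cells outside the RPE gate it stood at 3.13 CPM on 213 UMIs in Dox and at 1.48 CPM on 132 in control. Of these UMIs, 82 in Dox and 10 in control came from the RPE-like cells under the Rpe65 limit.

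Across 28 profiles, each a cell group of 50 or more cells in 1 library, Malat1 was closest in pattern to Gm26917 and Kcnq1ot1 among the members, with Pearson correlations of log2 CPM of 0.9 each, and to Lncpint at 0.88. Meg3 was at 0.06 and Snhg7os at 0.47. Among 7091 other genes, those most like Malat1 were Srek1, Leng8 and Chd6 (0.96, 0.95 and 0.95), those most like Lncpint Fnbp4, Paxbp1 and Srcap (0.95, 0.94 and 0.94), and those most like Meg3 Rian, Svil and Eln (0.98, 0.94 and 0.94). Gm42047 had no gene above 0.79, reached by Exoc4 and Nedd4l. The profiles come from only 2 libraries and differ in depth, so the correlations are a description.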

How the data were processed

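RNA of dissociated RPE, choroid and sclera was read with the 10x 5′ single-cell kit, 1 library per condition. The deposited values are raw counts of UMIs per gene and barcode, which per the file headers came from Cell Ranger 4.0.0, with mm10 as the build. The annotation release and the handling of reads with several matches were not given in the sources used here. The study's limits were applied to barcodes, namely more than 500 UMIs, between 200 and 6000 genes, a ratio of log10 genes to log10 UMIs above 0.8 and a mitochondrial share below 20%. UMIs were summed per cell group and library and divided by the group's total (CPM). Levels have exact Poisson intervals, ratios exact conditional binomial ones. PCR duplicates were removed by UMI, and intervals and floors (3 counts) cover counting error only. Ratios were counted past 1.5-fold among genes with 50 or more UMIs over both sides. All kept cells were clustered in Seurat 5.3.0 (R 4.3.3; SCTransform, integration, 40 components, resolution 0.1) on 2980 features, the 8 RNAs and mitochondrial genes left out, and clusters were used for cells outside the RPE gate. No cell was removed as a doublet beyond the limit on genes. All 8 RNAs were described in each group. List genes were named by the largest absolute log2 ratio, up to 4 per list and comparison, and likeness by the 3 highest correlations per RNA. Members and lists were chosen with earlier results of these data known. Counts used Python 3.11.15, numpy 2.4.6 and scipy 1.17.1, and the ratio code was tested on simulated data. Sequences came from GRCm38 and, for promoters, from RefSeq.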

Additional observations from a re-analysis of the deposited data

Results flagged for a closer look

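Meg3 differed in direction between cell types in the comparison of Dox with control. Its log2 ratio was 0.9 in the cluster led by Gm10863, on 22 and 39 UMIs, but -0.99 in melanocyte-like cells and -1.36 in macrophage or antigen-presenting-like cells. Fibroblast markers summed to 4175 CPM in Dox against 4299 CPM in control in that cluster. They summed to 2256 against 4076 CPM in melanocyte-like and 2166 against 3533 CPM in macrophage or antigen-presenting-like cells. In Schwann-like cells they summed to 1705 against 4176 CPM, with Meg3 at 131 against 97.0 CPM. The part of such RNA in the Meg3 ratios was not tested. With 1 library per condition, the difference between cell types was not tested either.

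The barcodes left out by the limits on cells, 223 in Dox and 201 in control, enter no comparison above. In them Gm42047 stood at 10.6 CPM on 50 UMIs in Dox and at 1.42 CPM on 3 UMIs in control, a log2 ratio of 2.9 (1.27 to 5.23).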

How the results depend on the processing

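No paired analysis was possible because each condition had 1 library, and for the same reason no replicate could be left out. Of 226 counts of members past the fold under an alternative, 188 stayed within 1.5 times the reported count and 38 did not. The share of all genes past the fold under each alternative is not given here. Of 1701 alternative values of single RNAs, 1225 were classed as the same as the reported value, 463 as moved from it and 13 as reversed. Ratios of single RNAs that were past 1.5-fold changed sign in 13 of 899 alternative values, and the other ratios, many of them near 0, in 94 of 770. Gm42047 in Dox over control ranged from 1.67 to 3.29 on the log2 scale in main RPE cells and from 1.99 to 4.36 in high-mitochondrial cells. Apart from the limit on UMIs named below for Gm42047, the causes were not tested. In what follows, without doublets means that the cells with the highest Scrublet scores were left out, up to an assumed doublet rate. These were 3310 in control and 1948 in Dox, where Scrublet itself called 1768 and 732 barcodes. Among them were 357 control and 196 Dox RPE cells.

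Dox over control in main RPE cells (2 members) gave 1 without mitochondrial genes or the 8 RNAs in the total, without doublets, without cells under 2000 UMIs, at 2-fold and without barcodes found in both libraries, and 4 at 5000 to 10000 UMIs. All RPE cells (2) gave 1 without doublets and at 5000 to 10000 UMIs. High-mitochondrial cells (1) gave 0 with a mitochondrial share under 0.1, at 20 Rpe65 UMIs, thinned to 2000 UMIs and at 5000 to 10000 UMIs, and 2 at 3 Rpe65 UMIs and with the split at 0.03. Where the count was 0, Gm42047 had too few UMIs to be counted, while its log2 ratio stayed at 1.99 or higher in all alternatives. It had 40 UMIs in Dox and 8 in control at shares of 0.05 to 0.1. At 5000 to 10000 UMIs it had 20 and 3, with a log2 ratio of 2.67 (0.91 to 5.06). Serpina3n-high cells (3) gave 5 at 3 Rpe65 UMIs, with the mean of cells and without doublets, and 1 at 2-fold.

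High-mitochondrial over main cells gave 8 at 3 Rpe65 UMIs and 2 at 5000 to 10000 UMIs in control (5), and 4 with the mean of cells, 2 thinned and 0 at 5000 to 10000 UMIs in Dox (7). Serpina3n-high over main cells gave 5 at 3 Rpe65 UMIs, with the mean of cells, without doublets and with the split at 2000 CPM in control (3). In Dox (5) it gave 2 at 20 Rpe65 UMIs and at 2-fold, and 3 when centred on all genes and with the split at 500 CPM. RPE over other cells of control (5) gave 3 at 20 Rpe65 UMIs and at 2-fold. The groups by Malat1 share gave 3 thinned and at 5000 to 10000 UMIs in control (5) and in Dox (6).

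Among ratios past 1.5-fold, signs changed for Gm26917 in RPE over other cells of Dox at 20 Rpe65 UMIs (-0.24) and in Serpina3n-high over main cells with the split at 500 CPM (0.04). Meg3 in high-mitochondrial over main cells of Dox went to 0.07 within the RPE-like cluster, 0.35 without doublets and 0.59 with the split at 0.1, and in Serpina3n-high over main cells to 0.07 without doublets. At 5000 to 10000 UMIs, an alternative chosen after seeing the data, as was leaving out shared barcodes, Snhg7os went to 0.05 in Dox over control of main cells. There Neat1, Gm26917 and Gm42047 went to -0.38, -0.24 and -0.68 in high-mitochondrial over main cells of Dox, Neat1 and Snhg7os to 0.9 and 0.01 in RPE over other cells of control, and Meg3 to -2.45 between the highest and lowest Malat1 group of control. Of ratios under 1.5-fold, RPE over other cells went at that depth from -0.04 to 1.29 for Kcnq1ot1 and from -0.22 to 1.63 for Lncpint in control, and from -0.58 to 1.39 for Neat1 and from -0.12 to 2.07 for Lncpint in Dox. In Dox over control of main cells Gm26917 went from 0.41 to -0.1 at 20 Rpe65 UMIs, and Neat1 and Meg3 from -0.17 and -0.23 to 0.22 and 0.35 with the mean of cells. Snhg7os and control Gm42047 rest on few UMIs, which limits their ratios.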
